A study of Columba livia with 9 samples.

Results

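Late growth of the pigeon bursa of Fabricius (BF) was examined by comparing squabs aged 26 days (26D) with squabs aged 13 days (13D). These stages held 6 of the 9 libraries of the series, 3 for each stage, and all libraries whose labels name either age were used. Every library came from the BF of a single female squab of the White King strain (*Columba livia*). The labels name no treatment, so the groups shared strain, sex and tissue and differed in age. RNA was depleted of ribosomal RNA and made into strand-specific libraries, and the deposited values are TPM, in which each transcript's abundance is corrected for its length and set against the total of the library. The tables hold 13072 mRNAs and 19129 lncRNAs. The 3 libraries of 1-day squabs (1D) set the scale together with the other 6 and are quoted as context only.

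The BF is a lymphoid organ of birds that opens into the cloaca. B cell precursors colonise its follicles, divide rapidly there and diversify their immunoglobulin genes by gene conversion, after which B cells leave for the peripheral lymphoid tissue. Each follicle has a cortex and a medulla carried by epithelial and reticular cells, with secretory dendritic cells and macrophages among the lymphocytes, and the organ grows after hatching before it regresses around sexual maturity.

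Within a library the deposited TPM of both tables were divided by the library's median over the 10027 mRNAs above 0.5 TPM in all 9 libraries, and multiplied by the geometric mean of those medians. The result is called scaled TPM, and its triplets are given in the order of replicates 1, 2 and 3. This step was large, since among the 6 compared libraries the factor ranged from 0.462 in 26D_1 to 1.38 in 13D_2. A single assembled lncRNA, G17924, took between 15.4% and 28.9% of all TPM at 13D and between 28.6% and 39.0% at 26D, with the highest share in 26D_1. CD79B, the beta chain of the B cell receptor, reached 315, 372 and 486 scaled TPM at 13D and 651, 510.4 and 338 at 26D. The haemoglobin gene HBAD was listed at 0 in 5 of these 6 libraries. Such single genes show B cell RNA but neither identify the organ nor measure its blood content. TPM carry no read counts, so the depth behind a single value cannot be read from the tables, read totals of the libraries were not used here, and the spread between the 3 squabs of a stage is the measure of error.

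No mRNA and no lncRNA met the thresholds for differential expression (DE) between 26D and 13D, for which limma's Benjamini-Hochberg adjusted p had to be under 0.05 and the log2 fold change above 1 or below -1. The percentage called was 0 for mRNAs and 0 for lncRNAs, and the smallest adjusted p values were 0.132 and 0.158. With edgeR at the same thresholds, the paper reported some DE mRNAs and lncRNAs between these ages. The absence of calls therefore holds for limma on scaled TPM. The former and latter adjusted p are those of mRNAs and lncRNAs in that order. The smallest adjusted p of mRNAs belonged to GeneID:106146089, an mRNA without a symbol at 1.67, 3.42 and 1.73 scaled TPM at 13D and listed at 0 in the 26D squabs. At an unadjusted p under 0.05, 504 mRNAs (3.86%) were higher at 26D and 366 (2.8%) were lower, or 870 (6.66%) in either direction. Among lncRNAs the counts were 276 (1.44%) higher and 734 (3.84%) lower, or 1010 (5.28%) in either direction. The median log2 fold change over all mRNAs was 0, with quartiles of -0.19 and 0.21. Without scaling that median was -0.53 and the split of mRNAs at an unadjusted p under 0.05 was 50 higher against 1131 lower, and all directions given here are therefore relative to the typical mRNA of each library. In data simulated from these means and spreads, the same fit recovered 81 of 100 mRNAs changed by 2 on the log2 scale and 92 of 100 changed by 3, and 13 and 44 of 100 lncRNAs with the same changes. It also called 3 unchanged mRNAs and 0 unchanged lncRNAs. The changed features were drawn only from those with a mean log2 value above 1, so recovery of lower features, the typical lncRNA among them, was not tested. All changed features of a class were placed in 1 data set, which eases the adjusted p threshold. The simulated noise was independent between features and had the same spread in both stages, unlike these squabs. Recovery in the real data may therefore be lower.

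Because nothing was called, genes are described by their values in each squab and by whether the 3 squabs of each stage overlapped. Among all 13072 mRNAs, every 26D squab lay above every 13D squab for 780 (5.97%) and below for 823 (6.3%). Counts of genes highest or lowest in 1 of the 6 libraries have a background too, taken over 10646 mRNAs with a mean of at least 1 scaled TPM. Of these, 26D_1 was highest for 2967 and lowest for 2645, 26D_2 for 990 and 1079, and 26D_3 for 2202 and 2250. The gene lists used below were drawn from textbook roles, but lists and members were chosen with earlier results of these data known. Each is described by its counts without overlap and its median log2 fold change, which are descriptions and not independent tests. Leaving out a squab can only keep or raise the number of genes apart, so such counts are no separate support. Standard errors (SE) come from the same fit, which added 0.5 to each scaled TPM of an mRNA before taking log2, so fold changes of low genes are understated. Values in brackets after a gene's levels are its log2 fold change of 26D over 13D with the SE. The adjusted p of the mRNAs with a symbol that are named here was 0.689 or more. The leading mRNAs and lncRNAs below were picked by smallest p among features whose stages did not overlap. Their separation therefore follows from the choice. A minimum mean was set over both stages together, and some features, such as SPP1 and PHLDA3, passed it only through the stage where they were high.

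Macrophage genes stood higher at 26D. All 13 measured members of the 19-gene list had a higher mean log2 value at 26D, with a median log2 fold change of 0.65 against 0 for all mRNAs. In 8 of the 13 the stages did not overlap, where 5.97% of all mRNAs did not in that direction, and 7 of the 13 had an unadjusted p under 0.05. No member was called. On the deposited TPM, where the typical mRNA lay at -0.53, the list median was 0.07. The summed level of the list was 217, 206 and 320.5 scaled TPM at 13D and 421, 333 and 497 at 26D, so each 26D squab lay above each 13D squab. The mean log2 value over the list did overlap, at 2.76, 2.99 and 3.42 at 13D and 3.58, 3.37 and 4.27 at 26D. By that measure 26D_2 lay just below 13D_3. In whole tissue, more macrophages and more RNA per macrophage cannot be told apart.

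Complement and phagocytic genes led the macrophage list. C1QA, a chain of the complement recognition protein that macrophages secrete, was measured at 8.52, 8.95 and 15.9 scaled TPM at 13D and at 34.6, 21.8 and 72.9 at 26D (log2 fold change 1.79, SE 0.44, adjusted p 0.725). Its lowest 26D squab was above its highest 13D squab, and 26D_3 was far above the others. MPEG1, the pore-forming protein of phagosomes, gave 4.08, 6.02 and 9.44 at 13D and 11.6, 11.96 and 20.3 at 26D (log2 fold change 1.13, SE 0.34). Its stages were separate and 26D_3 was highest. CSF1R, the receptor for the macrophage growth factor CSF1, was at 20.9, 17.5 and 21.1 at 13D and 27.8, 23.9 and 46.1 at 26D (0.65 on the log2 scale, SE 0.25). The scavenger receptor MARCO was at 4.99, 3.75 and 5.35 at 13D and 5.59, 7.70 and 13.4 at 26D, and its 26D_1 value was only just above the highest 13D value. The iron exporter SLC40A1, or ferroportin, differed from these in its order, with 85.1, 53.8 and 111 at 13D and 164, 120.0 and 118 at 26D and its maximum in 26D_1. The remaining members were smaller or overlapping, and LYZ, which encodes lysozyme, was at 0.722, 7.23 and 10.6 at 13D and 3.47, 2.64 and 23.9 at 26D.

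The excess was smaller, by its median, without the squab with the highest values. Squab 26D_3 was the highest of the 6 libraries for 12 of the 13 macrophage genes, and without it the median log2 fold change of the list was 0.38 and 8 genes did not overlap, where 11.4% of all mRNAs did not. The members with an unadjusted p under 0.05 then fell from 7 to 3 (3.97% of all mRNAs), and they numbered 5 without 26D_1 and 5 without 26D_2. Without 26D_1 the median was 0.65 with 8 genes apart (9.45% of all mRNAs), and without 26D_2 it was 0.84 with 10 apart (12.7%). These counts without single squabs were added after the data had been seen. The number of genes apart could not fall when a squab was left out, so it is no support for the excess. The 1D squabs were not below 13D in the same manner, for example with 21.9, 46.6 and 16.1 scaled TPM of CSF1R and 9.45, 23.2 and 9.04 of C1QA, where 1D_2 was highest.

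Several of the mRNAs with the smallest p values among those higher at 26D are also known from myeloid cells. SPP1, which encodes the secreted phosphoprotein osteopontin, was low at 13D, with 0.129, 0.453 and 1.94 scaled TPM, and stood at 7.39, 6.37 and 15.2 at 26D. The stages were apart by more than 3-fold between the nearest squabs, and the log2 fold change was 3.06 (SE 0.54, adjusted p 0.689). At 1D the gene had been at 13, 10.5 and 1.84, so the low level was that of the 13D squabs and of 1D_3. CX3CR1, the receptor of the chemokine fractalkine found on monocytes and macrophages, was at 10.02, 7.24 and 13.03 at 13D and 23.8, 21.03 and 20.99 at 26D (1.12, SE 0.22), with little spread at 26D. HMOX1, the haem-degrading oxygenase, was at 6.36, 6.31 and 7.38 at 13D and 17.8, 11.99 and 13.4 at 26D (1.04, SE 0.20). S100A10, the partner of annexin A2 at membranes, was at 4.92, 15.1 and 11.9 at 13D and 35.7, 37.5 and 59.5 at 26D (2.1, SE 0.40), where the 13D squabs themselves differed widely.

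Others of the 10 leading higher mRNAs had lymphoid or unrelated roles. LMO2, a transcriptional adaptor of blood-forming cells and germinal centre B cells, was at 27.8, 23.3 and 27.4 at 13D and 57.7, 43.6 and 47.9 at 26D (0.91, SE 0.17). CD96, an adhesion receptor of T and NK cells, was at 5.05, 6.36 and 5.20 at 13D and 13.6, 11.7 and 9.83 at 26D (1.01, SE 0.20). In both genes 26D_1 was highest and the stages were separate. PARVB, a focal adhesion protein, held 6.57, 7.53 and 18.1 scaled TPM at 13D and 32.8, 29.97 and 34.4 at 26D (1.69, SE 0.35), with 13D_3 nearest to 26D. PKIB, an inhibitor of protein kinase A, was at 17.7, 12.7 and 16.6 at 13D and 33.6, 26.7 and 40.7 at 26D (1.07, SE 0.21). PHLDA3, a target of p53, and CENATAC, a component of the minor spliceosome, had log2 fold changes of 1.18 and 1.02 (SE 0.22 and 0.20). All 10 had an adjusted p of 0.689 in limma.

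BCL2A1, an NF-kB target that protects lymphocytes from apoptosis, was at 20.4, 21.8 and 32.3 scaled TPM at 13D and 160.4, 51.4 and 48.7 at 26D. The stages were separate, but 26D_1 was about 3 times as high as the other 26D squabs, and the log2 fold change was 1.58 (SE 0.45, adjusted p 0.725). The 1D squabs were at 4.56, 5.26 and 7.95, below every 13D squab.

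**Figure D1:**
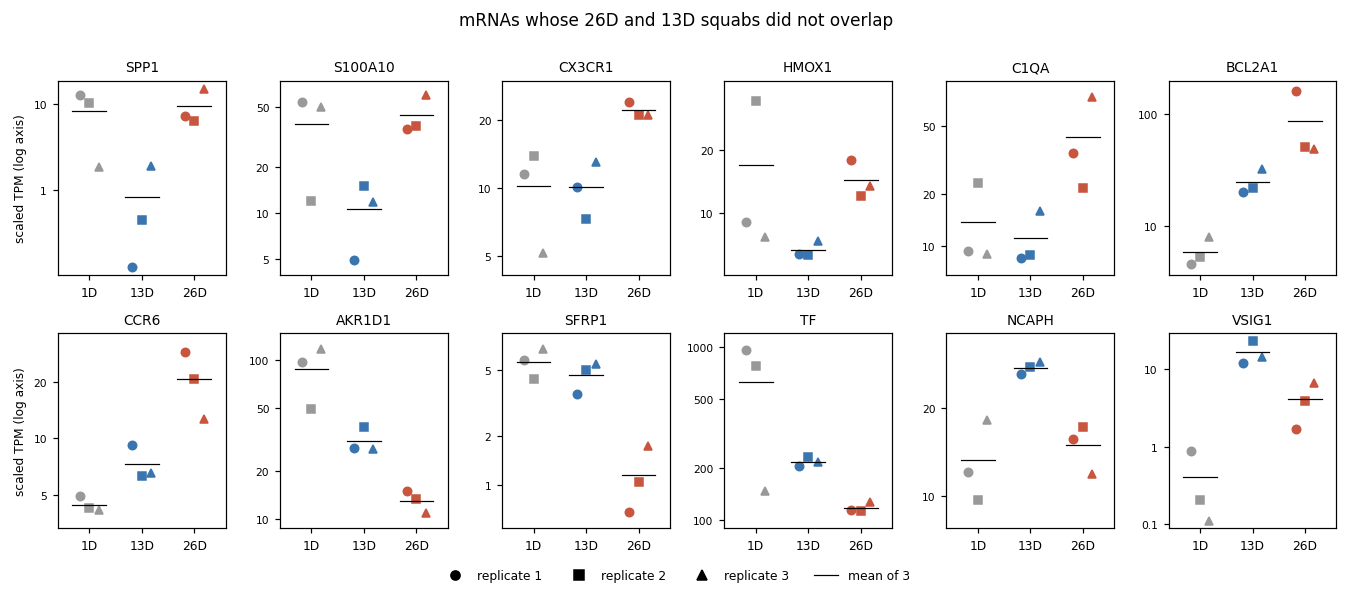
Scaled TPM (log axis) of 12 mRNAs in each squab at 1D (grey), 13D (blue) and 26D (red), with the symbol giving the replicate number and the line the mean of 3. The panels were picked from mRNAs whose 26D squabs lie wholly above or wholly below the 13D squabs, for example 21.8 to 72.9 against 8.52 to 15.9 for C1QA.

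Genes of antigen presentation, several of which macrophages also express, lay above the typical mRNA too. All 9 measured members of this 14-gene list had a log2 fold change above 0, with a median of 0.43 (-0.20 on deposited TPM), and 2 of the 9 were without overlap against 5.97% of all mRNAs. The costimulatory ligand CD86 was at 2.04, 1.79 and 3.03 scaled TPM at 13D and 5.34, 4.25 and 7.40 at 26D (1.14, SE 0.28, adjusted p 0.725). CTSS, the protease that trims the invariant chain, was at 12.4, 12.9 and 16.9 at 13D and 21.5, 18 and 43.6 at 26D (0.86, SE 0.33). In both genes the stages were separate and 26D_3 was highest. IFI30, a thiol reductase of the class II pathway, was at 42.7, 48.2 and 71.1 at 13D and 109, 70.5 and 126 at 26D (0.90, SE 0.28), where 26D_2 fell just inside the 13D range. CD74, the invariant chain itself, was among the most abundant mRNAs of the tissue, at 1296, 1321 and 1740.0 at 13D and 2655, 1690.2 and 2631 at 26D, and 26D_2 again lay below the highest 13D squab.

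Most genes of the list of B cell maturation and survival had a higher mean at 26D. The summed level of the list was 277, 263 and 321 scaled TPM at 13D and 591, 378 and 360.2 at 26D, so each 26D squab lay above each 13D squab. The list held receptors, ligands and regulators of apoptosis such as BCL2 and BCL2A1. In it, 11 of 13 measured genes had a log2 fold change above 0 and the median was 0.38 (-0.25 on deposited TPM). The stages were apart for 2 genes, CD83 and BCL2A1, where 5.97% of all mRNAs were. BCL2A1 made up 160.4 of the summed level in 26D_1. Without 26D_1, 26D_2 or 26D_3 the median was 0.28, 0.42 or 0.41. CD83, an activation marker of B cells and dendritic cells, was at 58.4, 40.7 and 47.2 at 13D and 90.7, 60.7 and 68.6 at 26D (0.58, SE 0.21), and the stages did not overlap. TNFSF13B, the B cell survival cytokine BAFF, was at 62.5, 41.9 and 64.6 at 13D and 109, 84.5 and 63.5 at 26D, and its receptor TNFRSF13C at 12.3, 9.21 and 9.64 at 13D and 22.05, 17.4 and 9.98 at 26D. Both overlapped between stages, with 26D_3 inside the 13D range. TNFRSF13B, the TACI receptor of the same ligand, had a log2 fold change of 0.59 (SE 0.24). The chemokine receptor CXCR5 of follicular B cells was at 24.5, 23.8 and 23.05 at 13D and 24.2, 27.4 and 21.8 at 26D.

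Among trafficking genes the largest difference was in CCR6, a chemokine receptor of mature B cells and dendritic cells. It was measured at 9.19, 6.29 and 6.51 scaled TPM at 13D and 28.9, 20.6 and 12.6 at 26D, with no overlap (log2 fold change 1.38, SE 0.31, adjusted p 0.689). The 1D squabs were at 4.95, 4.24 and 4.17. ITGA4, the integrin alpha chain that binds VCAM1, was at 34.7, 27.8 and 47.1 at 13D and 62, 52.7 and 104 at 26D (0.96, SE 0.30), whereas its ligand VCAM1 overlapped at 279, 269.6 and 237 at 13D and 306, 242 and 327 at 26D. S1PR4, a lymphocyte receptor for sphingosine phosphate, was low and lower at 26D, at 1.03, 1.15 and 0.934 at 13D and 0.663, 0.562 and 0.716 at 26D. Over the list, 4 of 18 measured genes were apart in the higher direction and 1 in the lower (5.97% and 6.3% of all mRNAs), with a median of 0.28 (-0.34 on deposited TPM), while the median without 26D_3 was 0.06.

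Genes that define the B lineage showed no common direction. The list of B lineage transcription factors had a median log2 fold change of -0.05, with 0 of 15 measured genes apart in either direction (5.97% of all mRNAs higher and 6.3% lower). None had an unadjusted p under 0.05 in limma (6.66% of all mRNAs in either direction). PAX5, the factor that maintains B cell identity, was at 61.98, 52.2 and 33.8 scaled TPM at 13D and 54.7, 49.8 and 20.7 at 26D. Its low values were in 13D_3 and 26D_3, so the spread within a stage exceeded the difference between stages. EBF1, a partner of PAX5, was at 39.01, 38.8 and 47.4 at 13D and 43.1, 55.4 and 30.6 at 26D. IKZF1 was at 136, 145 and 109 at 13D and 181, 138 and 104 at 26D. SPI1, which myeloid cells share with B cells, had a higher mean at 26D, at 145, 183 and 243 at 13D and 431, 282 and 234 at 26D, with 26D_3 just inside the 13D range. BACH2, a repressor of plasma cell differentiation, was at 38.1, 29.1 and 27.6 at 13D and 12.3, 31.4 and 16.7 at 26D, with 26D_2 at the 13D level and the other 26D squabs below it.

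B cell receptor signalling was likewise near 0, with a median log2 fold change of 0.06 and 1 of 18 measured genes apart in the higher direction (5.97% of all mRNAs). That gene was VAV3, a guanine exchange factor downstream of the receptor, at 37.6, 28.8 and 27.1 at 13D and 47.4, 44.9 and 48.8 at 26D (0.60, SE 0.17). The kinase SYK was at 238, 139 and 129.8 at 13D and 225, 203 and 115 at 26D. The kinase LYN was at 438, 395 and 405 at 13D and 373, 440.0 and 332 at 26D, and in both the stages overlapped. Squab 26D_3 was the lowest of the 6 libraries for 10 of the 18 genes. Without it 7 of the 18 were apart in the higher direction, against 11.4% of all mRNAs, and the median was 0.22. Leaving out the lowest squab favours such a rise. Without 26D_1, 2 were apart higher and 0 lower, with a median of -0.05. Without 26D_2, 1 was apart higher and 2 lower, with a median of -0.06.

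Immunoglobulin diversification genes showed a split of the same kind. The median of the 17 measured genes was -0.07, with 0 apart in the higher direction and 2 in the lower (5.97% and 6.3% of all mRNAs), and 26D_3 was the lowest library for 13 of them. BRCA2, a mediator of homologous recombination, was at 52.6, 44.5 and 50.6 at 13D and 42.1, 35.9 and 26.1 at 26D without overlap (-0.52, SE 0.20). RAG1 was at or below the expression threshold in most squabs, at 0.166, 0.630 and 0.180 at 13D and 0.0285, 0.0246 and 0.0344 at 26D. RAG2, the other recombinase subunit, was at 0.896, 1.22 and 2.29 at 13D and 3.07, 4.73 and 1.90 at 26D (0.91, SE 0.37). DNTT, which adds bases at immunoglobulin junctions in mammals, was at 46.3, 52.4 and 37.3 at 13D and 73.03, 83.7 and 45.9 at 26D. UNG, the uracil glycosylase that acts after the mutator AID, was at 113, 147 and 209 at 13D and 172, 106 and 77.8 at 26D, and 26D_3 was lowest.

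Plasma cell and secretion genes differed more among the 26D squabs than between the ages. JCHAIN, the joining chain of polymeric antibody, was at 234, 244 and 209 scaled TPM at 13D and 577, 249.7 and 625 at 26D (0.97, SE 0.37), so that 26D_2 was close to 13D while 26D_1 and 26D_3 were more than 2 times as high. FKBP11, a prolyl isomerase of the secretory pathway, followed the same order, at 10.04, 12.3 and 21.9 at 13D and 34.3, 9.40 and 80.003 at 26D. MZB1, a chaperone of antibody secretion, was instead highest in 26D_1, at 74.05, 95.8 and 147 at 13D and 321, 103 and 157 at 26D. The transcription factors PRDM1 and XBP1 overlapped, with PRDM1 at 1.75, 1.55 and 8.77 at 26D against 2.57, 3.01 and 2.58 at 13D. Of 14 measured genes 2 were apart in the higher direction (5.97% of all mRNAs), with a median log2 fold change of 0.23 (-0.37 on deposited TPM). Without 26D_2 it was 7 (12.7% of all mRNAs) with a median of 0.47. Without 26D_1, 2 were apart higher and 1 lower, with a median of 0.36. Without 26D_3, 2 were apart higher and 4 lower, with a median of 0.10.

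Cell division genes had mostly lower means at 26D, and squab 26D_3 carried much of the difference. The summed level of the list was 2529.8, 2614 and 3029 scaled TPM at 13D and 3012, 2508 and 1708 at 26D, so that 26D_1 lay inside the 13D range, 26D_2 just under it and 26D_3 far below. Of the 30 proliferation genes, all measured, 25 had a log2 fold change below 0, with a median of -0.32. In 7 of the 30 every 26D squab was below every 13D squab, where 6.3% of all mRNAs were, and 4 had an unadjusted p under 0.05 on the lower side against 2.8% of all mRNAs. These 7 were CENPF, TPX2, BUB1, BUB1B, KIF11 and KIF20A, which act in mitosis, and the cyclin gene CCNA2. None was called.

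CENPF, a kinetochore protein, was at 62.6, 64.6 and 50.2 scaled TPM at 13D and 32.4, 43.4 and 29.9 at 26D (-0.75, SE 0.19, adjusted p 0.725). The spindle assembly factor TPX2 was at 61.01, 58.9 and 56.9 at 13D and 41.3, 46.4 and 35.7 at 26D (-0.52, SE 0.15). The checkpoint kinase BUB1B was at 40.2, 37.9 and 42.03 at 13D and 29.6, 36.1 and 22.9 at 26D (-0.46, SE 0.19). In these genes 26D_2 was nearest to 13D and 26D_3 lowest. NCAPH, a condensin subunit outside the list and among the 10 leading lower mRNAs, was at 26.1, 27.4 and 28.6 at 13D and 15.7, 17.2 and 11.9 at 26D (-0.87, SE 0.18). KIF20A, a kinesin of cytokinesis, had a log2 fold change of -0.51 (SE 0.21).

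The replication genes of the list were mostly not apart. MKI67, the common marker of cycling cells, was at 221, 266 and 239.6 at 13D and 226, 204 and 125 at 26D, and only 26D_3 was far below the rest. PCNA, the replication clamp, was at 230.3, 283 and 444 at 13D and 466, 345 and 235 at 26D. TYMS, the thymidylate synthase, was at 82.8, 73.2 and 99.2 at 13D and 162, 92.4 and 57.5 at 26D. Both were highest in 26D_1 and lowest in 26D_3 among the 26D squabs. Squab 26D_3 was the lowest library for 24 of the 30 genes, and without it the median log2 fold change was -0.10 with the same number of genes, 7, apart (14.5% of all mRNAs) and 2 of the 30 lower at an unadjusted p under 0.05 (3.89%). Without 26D_1 it was -0.41 with 14 apart (9.95%). Squab 26D_3 had the highest summed levels of the macrophage (497), T cell (136) and matrix (739.5) lists among the 6 libraries, and their part in its proliferation values was not tested.

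The 10 leading lower mRNAs had no role in common. AKR1D1, a steroid reductase of bile acid and steroid hormone metabolism, was at 27.8, 37.96 and 27.3 scaled TPM at 13D and 14.9, 13.3 and 10.97 at 26D. Each 26D squab was below each 13D squab, with a log2 fold change of -1.21 (SE 0.20, adjusted p 0.689), and the 1D squabs were at 97.1, 49.2 and 116. SFRP1, a secreted antagonist of Wnt signalling, was at 3.59, 5.04 and 5.48 at 13D and 0.688, 1.06 and 1.73 at 26D (-1.68, SE 0.29). TF, which encodes the iron carrier transferrin, was at 206, 232 and 216 at 13D and 115, 112 and 127 at 26D (-0.88, SE 0.17), with a narrow spread in both stages. VSIG1, an adhesion protein of the immunoglobulin superfamily, was at 11.9, 23.04 and 14.3 at 13D and 1.71, 3.92 and 6.57 at 26D (-1.99, SE 0.44). Its course was not monotone in the means, since the 1D squabs were at only 0.890, 0.205 and 0.111. RPL39, a ribosomal protein gene, was at 209.8, 197 and 259.9 at 13D and 121, 113 and 106 at 26D (-0.96, SE 0.19), while 54 of 58 listed ribosomal protein genes had a log2 fold change above 0 on scaled TPM. PLPP4, a lipid phosphatase, had a log2 fold change of -2.29 (SE 0.44), from 3.66, 8.33 and 2.21 to 0.356, 0.259 and 0.817, and MAP7D3, DOP1B and WBP4 had -1.01, -0.82 and -0.70 (SE 0.22, 0.15 and 0.16). The adjusted p of the 10 was 0.689, except for 0.701 in WBP4.

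Some further mRNAs with large, non-overlapping differences were picked after their values were seen. NECAB1, a calcium-binding protein, was at 8.001, 0.278 and 2.86 scaled TPM at 13D and 50.8, 33.5 and 9.93 at 26D (3.22, SE 0.91), with a wide spread in both stages. LCAT, which esterifies cholesterol in lipoproteins, was at 10.97, 9.60 and 29.01 at 13D and 57.2, 40 and 45.2 at 26D (1.66, SE 0.40). The extracellular superoxide dismutase SOD3 was at 2.75, 2.82 and 6.25 at 13D and 10.2, 8.15 and 16.9 at 26D (1.49, SE 0.37). GPR34, a receptor known from microglia and other macrophages in mammals, was at 4.19, 3.46 and 4.60 at 13D and 11.5, 6.995 and 12 at 26D (1.19, SE 0.25). On the lower side were 3 genes of basement membrane proteins, which were picked singly and not from a list, with nidogen NID1 at 39.5, 31.6 and 26.99 at 13D and 16.4, 13.7 and 24.4 at 26D (-0.85, SE 0.25), the collagen COL4A5 at 13.5, 16.9 and 9.65 at 13D and 4.19, 6.50 and 7.81 at 26D (-1.06, SE 0.29) and the laminin chain LAMA3 at 22.4, 25.98 and 16.7 at 13D and 8.30, 13.04 and 13.8 at 26D (-0.87, SE 0.25). The efflux transporter ABCG2 was at 3.48, 5.94 and 2.88 at 13D and 1.08, 0.748 and 1.88 at 26D (-1.40, SE 0.34).

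The measured erythroid genes were low, apart from TFRC and EPB41. Of 15 listed, 7 were measured, 6 had a log2 fold change below 0 and 4 were apart in the lower direction (6.3% of all mRNAs), with a median of -0.40. SLC4A1, the anion exchanger of red cells, was at 0.483, 0.390 and 0.725 scaled TPM at 13D and 0.130, 0.218 and 0.165 at 26D. RHAG, a red cell membrane protein, was at 0.611, 0.452 and 0.718 at 13D and 0.118, 0.159 and 0.350 at 26D. The transferrin receptor TFRC, which dividing cells of many types also carry, was at 60.01, 71.1 and 57.5 at 13D and 54.01, 51.6 and 48.5 at 26D (-0.28 on the log2 scale). EPB41 was at 15.4, 14.3 and 9.28 at 13D and 7.67, 10.9 and 10.2 at 26D, and its stages overlapped. Values of SLC4A1 and RHAG lie near the pseudocount, and their log2 fold changes of -0.61 and -0.63 are compressed by it. Among other cell types that the tissue could hold, the median was 0.13 for 8 dendritic cell genes, 0.01 for 13 endothelial genes, -0.06 for 15 epithelial genes and -0.49 for 12 skeletal muscle genes. Of these, 1 dendritic cell gene was apart in the higher direction and 0 of the others in either (5.97% of all mRNAs higher and 6.3% lower). Of 16 heterophil genes only 3 were measured, with a median of 0.72 and 2 apart in the higher direction (5.97% of all mRNAs). Their summed level was 5.39, 5.49 and 7.15 scaled TPM at 13D and 7.28, 7.29 and 15.7 at 26D, with 26D_1 and 26D_2 only just above 13D_3.

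**Figure D2:**
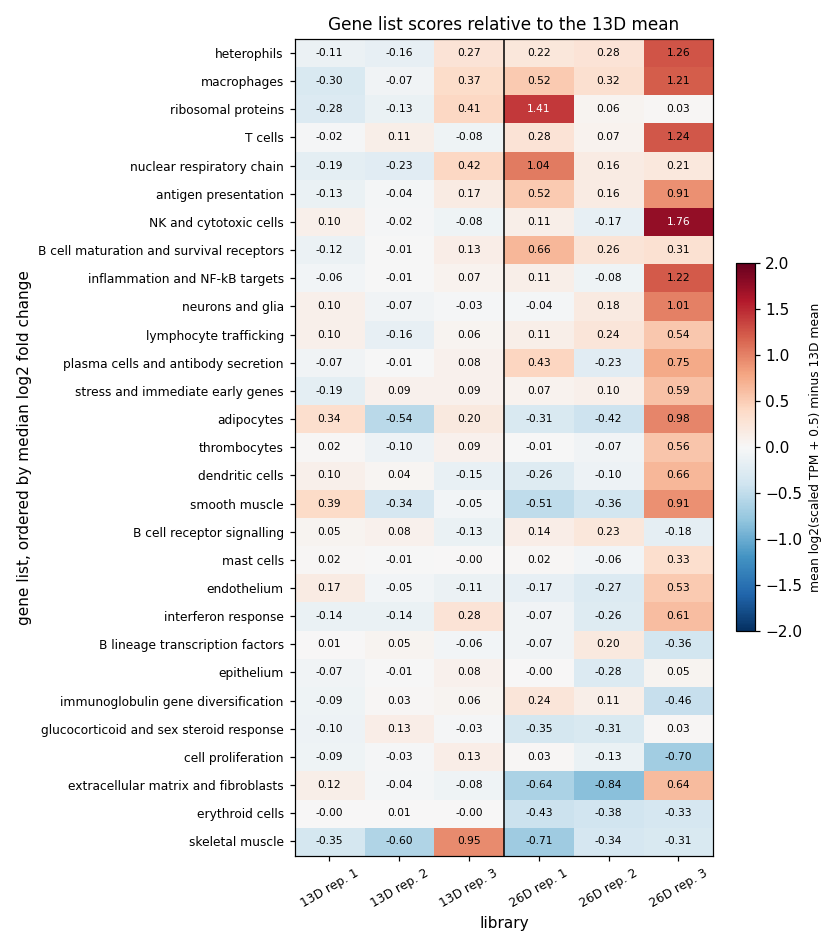
Score of each gene list in each 13D and 26D library, as the mean log2(scaled TPM + 0.5) over its measured genes minus the mean of the 3 13D libraries, with lists ordered by median log2 fold change. The macrophage row is above 0 in all 26D squabs, as are several other rows, but its 26D_2 score (0.32) is below that of 13D_3 (0.37). T cell, NK cell, inflammation and stromal rows are high in 26D_3 and the ribosomal and respiratory chain rows in 26D_1.

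The spread among the squabs was as large as the distance between the ages. Over all 13072 mRNAs the Euclidean distance between libraries averaged 55.9 within 13D, 71.5 within 26D and 66.5 between the stages. The ratio of between-stage to within-stage distance was 1.04 (one-sided exact permutation p = 0.3, where 0.1 is the smallest p that 3 against 3 squabs allow). The ratio of the spread within 26D to that within 13D was 1.28 (two-sided exact permutation p = 0.4, smallest possible 0.1). Leaving out single squabs moved the first ratio between 0.949 and 1.17, and it fell below 1 without 13D_1 (0.958) or 13D_2 (0.949).

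Squab 26D_2 lay close to the 13D squabs. Its distances to them were 57.4, 53.2 and 50.6, against 51.5, 59.0 and 57.1 among the 13D squabs themselves. It was farther from 26D_1 (64.2) and 26D_3 (69.6). The other 26D squabs were farther off, 26D_1 at 77.8, 78.8 and 64.4 from 13D and 26D_3 at 73.2, 77.3 and 66.0. They were also the most distant pair of all, at 80.7, so each differed more from the other than from any 13D squab.

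**Figure D3:**
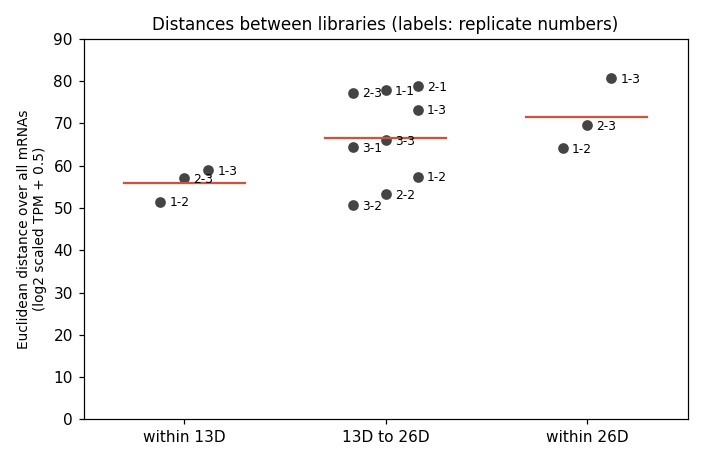
Euclidean distance over 13072 mRNAs between pairs of libraries within 13D, between 13D and 26D, and within 26D, with replicate numbers beside the points (13D number first between the stages) and a line at each mean. The 3 between-stage distances of 26D_2 (50.6 to 57.4) lie below the largest within 13D (59.0), and the pair 26D_1 and 26D_3 is the farthest at 80.7.

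Gene by gene these 26D squabs also varied more than the 13D squabs. All genes came from the same 3 squabs per stage, so counts of genes add no replication to the permutation above. Among 10646 mRNAs with a mean of at least 1 scaled TPM, the median SD of log2 values was 0.217 at 13D and 0.302 at 26D, and the SD was larger at 26D for 65.5% of them. An SD over 1 was found for 117 mRNAs at 13D and 330 at 26D. The excess was in 2 squabs, as 26D_1 exceeded all 5 other libraries by over 1 on the log2 scale for 153 mRNAs and 26D_3 for 185, while 26D_2 did so for 10 and the 13D squabs for 6, 11 and 8. The 192 mRNAs with a log2 fold change over 1 at 26D were distributed in the same way, with their maximum in 26D_3 for 97, in 26D_1 for 82 and in 26D_2 for 13. Of the 192, 103 had no overlap, where 5.97% of all mRNAs were apart in that direction. Choosing by fold change itself favours separate stages and a maximum at 26D, so that count is no separate result. For the 45 mRNAs below -1 the minimum was spread more evenly, in 26D_1 for 17, 26D_2 for 15 and 26D_3 for 11.

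Squab 26D_3 stood out by T cell, NK cell, inflammatory and stromal genes. It was the highest of the 6 libraries for 15 of 18 measured T cell genes, and the summed level of that list was 69.02, 88.98 and 88.3 scaled TPM at 13D and 116, 94.8 and 136 at 26D. CD4, the T helper coreceptor, was at 0.897, 1.002 and 0.276 at 13D and 1.08, 0.638 and 6.59 at 26D. CD8A, the coreceptor of cytotoxic T cells, was at 0.338, 0.424 and 0.0451 at 13D and 0.149, 0.0835 and 2.74 at 26D. Both were thus several times higher in 26D_3 than in any other squab. CD2, an adhesion molecule of T and NK cells, was at 2.68, 2.94 and 4.21 at 13D and 9.06, 3.75 and 17.1 at 26D (1.26, SE 0.49), where 26D_1 was also raised above the 13D range. The median log2 fold change of the list was 0.46 with all squabs and 0.14 without 26D_3. LEF1, listed with T cells but also expressed by B cell precursors, was the exception and was lowest in 26D_3, at 20.8, 39.8 and 25.8 at 13D and 33.4, 38.8 and 13.6 at 26D.

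Cytotoxic and interferon genes followed the same squab. GZMA, a granule protease of cytotoxic lymphocytes, was at 4.63, 1.49 and 2.63 scaled TPM at 13D and 4.88, 2.06 and 35.5 at 26D. PRF1, the pore protein perforin, was at 1.98, 2.29 and 6.13 at 13D and 1.63, 1.34 and 15.8 at 26D. IFNG, which encodes interferon gamma, was listed at 0, 0 and 0.248 at 13D and 0.253, 0 and 9.36 at 26D. All 3 genes had their highest value in 26D_3. IRF1, a target of interferon signalling, was at 18.1, 25.2 and 22.4 at 13D and 30.7, 21.1 and 77.1 at 26D. Across the interferon list 13 of 20 measured genes were highest in 26D_3, yet RSAD2, a target of type I interferon, was not set apart there, at 2.54, 2.92 and 6.28 at 13D and 2.51, 1.36 and 6.28 at 26D. The list median was -0.01 and 0 of 20 genes were apart, against 5.97% of all mRNAs in the higher direction.

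Inflammatory genes of activated macrophages were high in 26D_3 as well. NOS2, the inducible nitric oxide synthase, was at 1.75, 1.07 and 1.55 at 13D and 0.720, 0.629 and 12.7 at 26D, so that 26D_1 and 26D_2 were below the 13D squabs and 26D_3 above them. ACOD1, the itaconate-producing enzyme, was at 0.151, 0.145 and 0.0691 at 13D and 0.0220, 0.0559 and 7.07 at 26D. Of the 18 measured inflammation genes 16 were highest in 26D_3, and the median log2 fold change was 0.37 with it and 0.06 without it (-0.16 on deposited TPM with all squabs). IL18, an inflammasome cytokine, was higher in all 26D squabs, at 15.3, 14.6 and 21.3 at 13D and 33.6, 27.96 and 41.98 at 26D with no overlap (1.00, SE 0.22, adjusted p 0.689). The matrix protease MMP7, also picked after its values were seen, reached 31.3, 22.6 and 176 at 26D against 7.78, 6.82 and 27.2 at 13D. The lysosomal proteases CTSL and CTSK were also highest in 26D_3, CTSL at 28.5, 22.4 and 45.4 at 13D and 49.4, 27.5 and 147 at 26D. CTSK was at 8.89, 10.1 and 20 at 13D and 21.7, 21.9 and 68.5 at 26D (1.36, SE 0.49).

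Connective tissue genes divided the 26D squabs. The summed level of 24 measured matrix and fibroblast genes was 555, 490.2 and 471 scaled TPM at 13D and 338, 266 and 739.5 at 26D, after 2359, 1552 and 2386 at 1D. COL3A1, a fibrillar collagen, was at 124, 100.2 and 96.5 at 13D and 47.4, 31.1 and 137 at 26D. COL1A1 was at 3.19, 3.27 and 3.69 at 13D and 0.871, 0.710 and 4.99 at 26D. FBN1, the microfibril protein, was at 26.99, 20.9 and 20.3 at 13D and 10.4, 8.72 and 22.04 at 26D (-0.81, SE 0.33). Squab 26D_3 was the highest of the 6 for 21 of the 24 genes, whereas 26D_2 was lowest for 15 and 26D_1 for 6. With all squabs 1 of 24 genes, SPARC, was apart in the lower direction, against 6.3% of all mRNAs. It was at 98.8, 113 and 91.4 at 13D and 73.8, 52.3 and 87.8 at 26D. Without 26D_3, 18 of 24 were apart in that direction, where 14.5% of all mRNAs were, and the median log2 fold change went from -0.36 to -0.85. That squab was the highest for most of these genes, so a rise follows from the choice. Without 26D_1 or 26D_2 it was 1 of 24, with medians of -0.17 and -0.04.

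Several smooth muscle and vessel genes were highest in 26D_3 too. TAGLN, an actin-binding protein of smooth muscle, was at 10.4, 2.36 and 14.2 at 13D and 3.91, 6.10 and 41.1 at 26D. MYH11, the smooth muscle myosin, was at 35.4, 14.02 and 17.1 at 13D and 5.997, 13.9 and 46.2 at 26D. In both genes 26D_3 was above every other squab. VWF, the clotting factor carrier of endothelium, was at 9.67, 7.82 and 11.1 at 13D and 6.38, 6.83 and 30.8 at 26D. The matrix proteoglycan VCAN, picked in the same way, was at 3.26, 3.35 and 4.46 at 13D and 1.85, 1.67 and 22.2 at 26D. Of 14 measured smooth muscle genes 11 were highest in 26D_3. Epithelial genes did not follow, as EPCAM was at 177, 205 and 209 at 13D and 201, 204 and 186 at 26D. Of 15 epithelial genes 2 were highest in 26D_3, against 2202 of 10646 mRNAs with a mean of at least 1 scaled TPM.

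Squab 26D_1 stood out by ribosomal protein and respiratory chain genes. The summed level of 58 ribosomal protein genes was 70181, 74697 and 122254 scaled TPM at 13D and 296593, 94394 and 93699 at 26D, and 53 of the 58 were highest in 26D_1. RPS27 was at 1488, 1677 and 5795 at 13D and 15352, 4246 and 4238 at 26D. RPL37 was at 2949, 2069 and 5296 at 13D and 19063, 3889 and 3987 at 26D. Of 48 nuclear genes of the respiratory chain 42 were highest in 26D_1, including the ATP synthase subunit gene ATP5F1E at 493, 467 and 1191 at 13D and 3624, 1063 and 1126 at 26D. Without this squab the list medians were 0.04 for ribosomal proteins and 0.18 for the respiratory chain, against 0.48 and 0.44 with it, and on deposited TPM with all squabs they were -0.17 and -0.21. At 13D the highest summed level of both lists was in 13D_3, which also had the smallest scaling factor (0.837) and the largest G17924 share (28.9%) of that stage. Of all 9 libraries 26D_1 had the smallest scaling factor (0.462), the largest share of TPM in G17924 (39.0%), the fewest mRNAs above 0.5 TPM (10267, against 11192 to 11772 in the other 13D and 26D libraries) and the lowest median lncRNA level (0.480 scaled TPM). The part of these library properties in its values was not tested.

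Single genes of other kinds, picked after their values were seen, were highest in 26D_1 as well. CKS2, a small cell cycle kinase subunit, was at 189.5, 90.3 and 135 at 13D and 771, 131 and 114 at 26D. TEX14, known from germ cell bridges in mammals, was at 586, 502 and 524 at 13D and 2391, 702 and 473 at 26D. SEC61G, a short subunit of the translocon, was at 212, 189 and 341 at 13D and 1484, 378 and 522 at 26D. In all 3 genes 26D_1 was more than 2 times as high as the next squab. Lowest in 26D_2 was CALCB, a calcitonin-related peptide gene, at 18.6, 18.4 and 14.1 at 13D and 13.2, 1.90 and 6.87 at 26D. OLFM4, a secreted glycoprotein of epithelium, was at 33.8, 45.3 and 44.9 at 13D and 32.3, 12.1 and 29.1 at 26D, again with 26D_2 lowest. Lowest in 26D_3 was WIF1, a secreted Wnt inhibitor, at 28.8, 21.7 and 30.5 at 13D and 38.5, 14.5 and 3.96 at 26D.

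**Figure D4:**
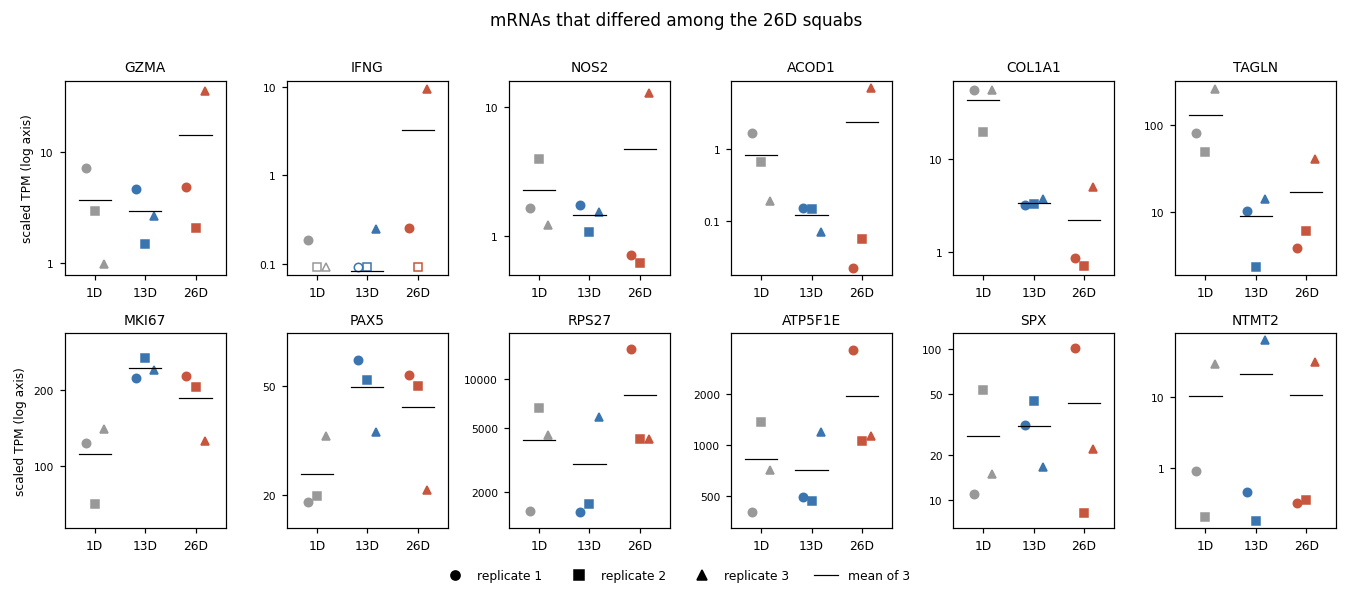
Scaled TPM (log axis) of 12 mRNAs that varied among the 26D squabs, plotted as in the plot of leading mRNAs, with open symbols for values listed at 0. Among the 13D and 26D squabs, GZMA, IFNG, NOS2, ACOD1, COL1A1 and TAGLN peak in 26D_3, where PAX5 and MKI67 are lowest, and RPS27, ATP5F1E and SPX peak in 26D_1. COL1A1 and TAGLN are higher still at 1D, and NTMT2 is high only in replicate 3 of each age.

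A few mRNAs varied widely between single squabs. NTMT2, a protein methyltransferase, was at 0.458, 0.178 and 63.4 scaled TPM at 13D, 0.320, 0.357 and 31.7 at 26D and 0.913, 0.203 and 29.7 at 1D. The squab numbered 3 was thus high in each stage and the others were near 0. Why the high squabs shared a replicate number was not tested. HS3ST2, a heparan sulphate sulfotransferase, was at 0.888, 1.91 and 13.7 at 13D and 4.84, 8.56 and 0.551 at 26D, with overlapping stages. SPX, the peptide hormone spexin, was at 31.5, 45.2 and 16.5 at 13D and 101, 8.18 and 21.7 at 26D. The highest and lowest of the 6 values were both at 26D. G0S2, an inhibitor of lipolysis, was at 7.61, 2.20 and 4.87 at 13D and 4.38, 1.23 and 23.5 at 26D. S100P, a calcium-binding protein, was at 69.1, 19.6 and 69.1 at 13D and 78.8, 12.5 and 101 at 26D. LOC102091934, which has no gene name, was at 5.32, 5.39 and 82.5 at 13D and 78.7, 86.8 and 75.97 at 26D, so that 13D_3 had the level of the 26D squabs.

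Relative to mRNAs, the typical lncRNA had a lower mean log2 value at 26D. Their median log2 fold change was -0.24, with 406 (2.12%) apart in the higher direction and 1531 (8%) in the lower. The median lncRNA stood at 0.838, 0.865 and 0.668 scaled TPM at 13D and at 0.480, 0.755 and 0.687 at 26D, so 26D_1 was far below and the other 26D squabs lay within the 13D range. The difference was in assembled transcripts, whose median was -0.27 with 1402 of 16589 apart in the lower direction, while for 2540 annotated lncRNAs (those listed under an NCBI ID) the median was 0 with 129 apart. When each library was scaled by its own lncRNA median, the median was -0.01 and the lncRNAs at an unadjusted p under 0.05 were 518 higher and 454 lower. That scaling sets the typical lncRNA near 0 by construction, so it cannot test the direction. The direction is given only relative to mRNAs.

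Several of the leading higher lncRNAs were low or listed at 0 at 13D. GeneID:110362773 was listed at 0 in all 13D and all 1D squabs and at 1.33, 1.01 and 1.10 scaled TPM at 26D (adjusted p 0.158). G14178 was also listed at 0 in the 13D squabs and stood at 1.87, 4.64 and 2.04 at 26D, but at 0, 8.36 and 3.09 at 1D. No fold is given against stages listed at 0. G37575 was at 3.46, 4.05 and 1.78 at 13D and 25.3, 31.2 and 33.2 at 26D (log2 fold change 3.30, SE 0.35, adjusted p 0.209), and the 1D squabs differed widely, at 0.811, 9.12 and 25.2. G11017 was at 0.134, 0.152 and 0.0530 at 13D and 2.37, 6.10 and 5.09 at 26D (4.37, SE 0.47). G181 was at 1.71, 1.61 and 1.56 at 13D and 6.02, 5.52 and 6.62 at 26D (1.83, SE 0.21), with little spread in either stage. In these 5 lncRNAs every 26D squab was above every 13D squab, as the choice of leading lncRNAs required.

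Some other settings gave calls. With lncRNAs restricted to the 16065 over 0.1 TPM in at least 3 of the 6 libraries, G11017, G14178, G37575 and GeneID:110362773 were called, all at an adjusted p of 0.0235 in limma. G14178 and GeneID:110362773 passed that filter only through the 26D libraries, where they were high. G11017 also needed 26D libraries to pass it, since its 13D_3 value was under 0.1 TPM. The calls of these lncRNAs under it are therefore no support for a difference. A limma fit to all 9 libraries called G11017 (adjusted p 0.0450) and GeneID:110362773 (0.00452). The 1D squabs, where GeneID:110362773 was also listed at 0, enter the error of that fit and not the difference of 26D from 13D. None of the 4 was called when any single library was left out of the comparison. The other leading higher lncRNAs were G18568 at 1.48, 1.996 and 1.43 at 13D and 4.91, 5.55 and 4.45 at 26D and G5409 at 14.2, 19 and 20.7 at 13D and 36.5, 44.02 and 37.7 at 26D. G38005 was at 1.46, 0.888 and 0.503 at 13D and 4.09, 3.89 and 5.65 at 26D. GeneID:110362658 was at 0.277, 0.128 and 0.134 at 13D and 1.16, 1.70 and 1.26 at 26D (2.42, SE 0.37), and G29133 had a log2 fold change of 2.0 (SE 0.38).

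The leading lower lncRNAs had larger adjusted p values. G248 was at 5.48, 6.28 and 6.53 scaled TPM at 13D and 2.88, 2.40 and 2.76 at 26D (-1.16, SE 0.21, adjusted p 0.736). G9060 was at 2.95, 2.71 and 2.29 at 13D and 0.862, 1.10 and 1.06 at 26D (-1.32, SE 0.26). In both the stages were apart. G3432 was at 3.44, 7.78 and 3.86 at 13D and 0.854, 0.468 and 1.12 at 26D (-2.46, SE 0.45). GeneID:110360265 was at 1.34, 1.93 and 1.60 at 13D and 0.476, 0.493 and 0.413 at 26D (-1.61, SE 0.30). The stages were apart in all 4, and the lowest 26D squab was not the same one in each. G4736 was at 1.41, 2.57 and 2.496 at 13D and 0.437, 0.361 and 0.671 at 26D (-1.93, SE 0.39). The remaining 5, G4735, G37854, G6562, G13065 and G35519, had log2 fold changes of -1.93, -1.11, -0.89, -1.41 and -1.02.

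**Figure D5:**
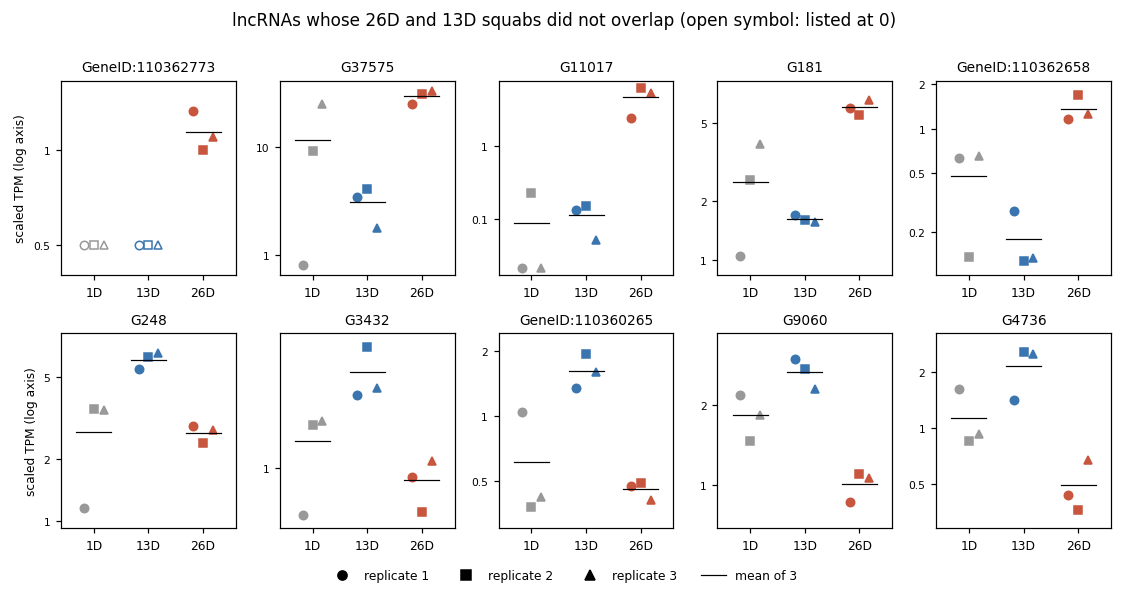
Scaled TPM (log axis) of 5 lncRNAs higher (top row) and 5 lower (bottom row) at 26D in each squab at 1D, 13D and 26D, with open symbols for values listed at 0. The panels were picked from lncRNAs whose 26D and 13D squabs are separate, for example 25.3 to 33.2 against 1.78 to 4.05 for G37575.

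LncRNAs also varied more among these 26D squabs, with the same 3 squabs per stage behind every count. Among 8513 with a mean of at least 1 scaled TPM the median SD of log2 values was 0.404 at 13D and 0.564 at 26D, and the SD was larger at 26D for 65.0%. Squab 26D_1 was lower than all 5 other libraries by over 1 on the log2 scale for 806 of them and higher for 156. For 26D_3 the counts were 114 and 93 and for 26D_2 40 and 20. For 13D_1, 13D_2 and 13D_3 they were 88 and 84, 111 and 64, and 56 and 24, so 26D_3 was near 13D_1 and 13D_2. The 5 of highest SD at 26D were present in some squabs and listed at 0 in others. G16715, G38096 and G37865 varied about as widely at 13D (SD 4.58, 4.87 and 3.87) as at 26D (4.77, 4.16 and 3.96). G38106 and G37259 varied less at 13D (1.73 and 1.05) than at 26D (4.27 and 4.01). G16715 was at 21.95, 0 and 26.7 at 13D and 30.5, 0 and 0 at 26D. G38096 was at 0, 0 and 34.5 at 13D and 29.1, 0 and 4.01 at 26D. G38106 was at 0.701, 4.70 and 7.69 at 13D and 0, 1.15 and 36.2 at 26D, with its maximum in 26D_3. G37259 was at 8.32, 9.46 and 2.46 at 13D and 0, 13.4 and 11.1 at 26D. G37865 was at 14.9, 6.31 and 0 at 13D and 13.3, 9.77 and 0 at 26D.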

How the data were processed

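Paired-end reads of the 9 BF libraries were mapped by the authors to the pigeon genome Cliv_1.0 with STAR (2.6.0c) and assembled with Cufflinks (2.1.1), versions being those of the submitters' processing notes. Transcripts without coding potential were kept as lncRNAs, and the authors ran Kallisto on both classes and deposited TPM. The tables keep features above a minimum in at least 1 library (mRNAs 0.5 TPM, lncRNAs 0.1 TPM). Counts and read depth were not used here. Gene symbols came from RefSeq for a different pigeon assembly, bColLiv1.pat.W.v2, matched by NCBI gene ID for 12387 of 13072 mRNAs and 868 lncRNAs, so no coordinates are given.

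TPM were scaled per library by the median of 10027 mRNAs. On log2(scaled TPM + 0.5) for mRNAs and log2(scaled TPM + 0.1) for lncRNAs, 26D and 13D were compared with limma (3.58.1, eBayes with trend, R 4.3.3) and Benjamini-Hochberg adjustment over all features. Features were called DE at an adjusted p under 0.05 with a log2 fold change above 1 or below -1. Distances were tested by exact permutation of squabs. The fit was tested on simulated data. Figures were drawn with matplotlib (3.10.9) in Python (3.11.15).

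Named features were up to 10 called in each direction or, since none was called, the 10 of smallest p with a mean of at least 1 (lncRNAs 0.5) scaled TPM, no overlap between stages and, for mRNAs, a symbol. Added to these were up to 3 higher and 3 lower members of each gene list with a mean of at least 1, the 12 mRNAs and 5 lncRNAs of highest SD at 26D with a mean of at least 5, the most abundant features, and AKR1D1, VSIG1 and BCL2A1. The paper reported AKR1D1, VSIG1 and BCL2A1 as DE in each of its comparisons of ages, so they were preselected from these data. Further members are named by their role, or where the text says so by their values. Members and lists were chosen with earlier results of these data known. Alternatives covered scaling, pseudocount, filters, prior, library weights, all 9 libraries, replicate block and leaving out each library.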

Additional observations from a re-analysis of the deposited data

How the results depend on the processing

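The number of DE mRNAs was 0 and became 1 on deposited TPM without scaling and 1 with a pseudocount of 0.1, in both cases GeneID:106146089. Leaving out single libraries gave 0 to 1 DE mRNAs, and the 1 was LOC102091934 without 13D_3 (adjusted p 0.00352 in limma). The number of DE lncRNAs was 0 and became 4 with a filter of 0.1 TPM in at least 3 of the 6 libraries. Of these, G11017, G14178 and GeneID:110362773 passed it only with the help of the 26D libraries where they were high. The number was 1 (G37575) with a mean of at least 1 scaled TPM and 2 with all 9 libraries in the fit, and it was 0 when any single library was left out. At an unadjusted p under 0.05 limma gave 870 mRNAs and 1010 lncRNAs in all. The 504 higher mRNAs became 50 on deposited TPM and 241 to 705 without single libraries (264 without 13D_1, 241 without 13D_2). The 366 lower mRNAs became 1131 on deposited TPM, 225 with all 9 libraries and 222 to 564 without single libraries (227 without 13D_1, 222 without 13D_2, 564 without 26D_2). The 276 higher lncRNAs became 78 on deposited TPM, 455 with library weights and 518 scaled by the lncRNA median, and the 734 lower lncRNAs became 454 with that scaling, 314 with a mean of at least 1 and 438 to 1534 without single libraries (472 without 13D_1, 438 without 13D_2, 1534 without 26D_2). The distance ratio of 1.04 ran from 0.949 (without 13D_2; 0.958 without 13D_1) to 1.17, and the spread ratio of 1.28 from 1.15 to 1.5. Of 1406 fold changes of 87 named features under the alternatives, 1395 kept their direction and side of the threshold, 4 reversed and 7 came to be called. Many of these features were picked because their stages did not overlap, so leaving out a library could not reverse them. Since none was called in the main fit, none could lose a call, and the count is no test of stability. On deposited TPM, where the median mRNA was at -0.53, the fold changes of TNFRSF13B, CD83, VAV3 and CD244 became -0.02, -0.07, -0.05 and -0.01. Deviations of same-numbered squabs of the stages had r = -0.08, 0.28 and -0.01 over mRNAs, against -0.22 to 0.18 for squabs of unlike number. The labels do not say what the numbers mean. These few correlations cannot tell whether same-numbered squabs were related. A replicate block gave 0 DE mRNAs and 0 DE lncRNAs. The causes of these moves were not tested. The error of low values from sequencing depth cannot be taken from TPM.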
